A study of Mus musculus with 21 samples.

Results

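Srebf2, Hmgcs1, Sqle, Idi1, Fdps, Lss and Insig1 are 7 genes of cholesterol synthesis and its sterol control, taken by symbol from the 22520 genes of an RNA-seq table of mouse liver. All 7 had a row. Of these, 6 reached at least 1 FPKM (RNA fragments per kilobase of gene, relative to all mapped fragments) in at least 2 columns and were tested among 11394 such genes. Hmgcs1 was listed at 0 in all 12 columns, as were 2405 genes of the table, and it was not tested. Cells in general use this gene, so a value of 0 can be a failed estimate and is not read as absence.

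The 12 columns were 4 genotypes in 3 conditions. DKO livers were Ezh1-/-Ezh2fl/flAlb-Cre, E1KO livers Ezh1-/-, E2KO livers Ezh2fl/flAlb-Cre, and WT livers Ezh2fl/fl without Cre. Either Ezh1 or Ezh2 serves as the enzyme of PRC2, which trimethylates histone H3 to keep genes silent. Alb-Cre is driven by the albumin promoter and acts in hepatocytes. Liver cells of E2KO and DKO mice in which it was never active keep Ezh2, whereas the Ezh1 null allele is in every cell. The conditions were an age of 3 months after carbon tetrachloride (CCl4, which becomes toxic once hepatocytes metabolise it), 8 months and 2 months, all on a mixed 129SV::FVB/N::C57BL/6 background. The CCl4 livers were thus 1 month older than the youngest ones, and age and CCl4 cannot be told apart in that comparison. There is 1 value per group, which the titles describe as 3 replicates, or 2 at 8 months, so no spread between animals can be given. The spread used in each test is the departure of the 12 columns from an additive fit of genotype and condition.

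Cholesterol is built from acetyl-CoA through mevalonate, isoprenoid units, squalene and lanosterol. Its control is by feedback: when sterols are plentiful, Insig proteins hold Scap and the SREBP-2 precursor in the endoplasmic reticulum, and when sterols run low Scap carries SREBP-2 to the Golgi, where proteases free the part that enters the nucleus. There it acts with NF-Y and Sp1 at sterol response elements of the pathway's genes, Insig1 and its own gene among them. Liver is a main site of this synthesis and also clears cholesterol from blood and exports it into bile.

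RefSeq promoter windows (GRCm38.p6) matched 5 of the 7 genes, and 3 are shown because they span the results: Hmgcs1 held a sterol response element by sequence, Idi1 had the largest difference with CCl4, and Insig1 was the member that fell. Each is the 250 bases before the annotated start, and capitals mark matches to TCACNCCAC, a form of the sterol response element, or to CCAAT, the NF-Y box, on either strand. All 3 lie on the plus strand, at chr13:119690101-119690350 (Hmgcs1), chr13:8885356-8885605 (Idi1) and chr5:28071162-28071411 (Insig1).
Hmgcs1: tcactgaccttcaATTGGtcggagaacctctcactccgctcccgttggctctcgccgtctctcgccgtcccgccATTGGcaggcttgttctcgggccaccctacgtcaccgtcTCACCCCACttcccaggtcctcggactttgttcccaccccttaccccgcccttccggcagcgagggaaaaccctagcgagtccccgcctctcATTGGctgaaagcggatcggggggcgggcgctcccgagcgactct
Idi1: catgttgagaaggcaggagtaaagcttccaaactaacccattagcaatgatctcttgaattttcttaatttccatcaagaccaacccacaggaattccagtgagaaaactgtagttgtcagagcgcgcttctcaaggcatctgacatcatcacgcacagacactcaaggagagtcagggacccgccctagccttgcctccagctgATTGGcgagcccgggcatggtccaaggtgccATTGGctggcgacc
Insig1: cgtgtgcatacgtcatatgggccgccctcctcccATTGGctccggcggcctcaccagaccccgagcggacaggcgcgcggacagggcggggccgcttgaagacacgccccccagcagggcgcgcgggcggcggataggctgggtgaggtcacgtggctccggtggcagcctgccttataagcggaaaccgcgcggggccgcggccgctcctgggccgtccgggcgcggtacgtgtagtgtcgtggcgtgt
The match TCACCCCAC in Hmgcs1 began 137 bases before the start. TCACNCCAC was in 1.05% and TCACNCGAC in 0.247% of 32851 RefSeq windows of this length, and neither was in the windows of Srebf2, Idi1, Lss or Insig1. CCAAT was in all 5 windows (3 times in Hmgcs1, 2 times in Idi1, and 1 time each in Srebf2, Lss and Insig1) and in 33.8% of all windows. GGGCGG, the Sp1 box, was also in all 5, with 1 to 4 matches each, and in 32.7% of all windows. Matches of different motifs did not overlap, and a match describes the sequence only. Only these letters within 250 bases were searched, so a window without a match is not read as lacking a sterol response element.

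Per length, the members covered a wide range of levels. Over the 12 columns, Fdps had a median of 157 FPKM and Insig1 of 106 FPKM, at the 94.8 and 93.0 percentiles of tested genes. Idi1 followed at 44.8 FPKM, Sqle at 14.6 FPKM, Lss at 11.3 FPKM and Srebf2 at 6.03 FPKM, the last near the middle of all tested genes (percentile 50.9). Neighbours overlapped in their ranges: Fdps spanned 117.8 to 216 FPKM and Insig1 58.1 to 175 FPKM, and Sqle spanned 3.41 to 30.4 FPKM and Lss 8.33 to 15.8 FPKM. The highest value of Sqle was 8.92 times its lowest, and 3.27 times without the E1KO column at 8 months, while Fdps varied least, at 1.83 times with and without that column.

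**Figure D1:**
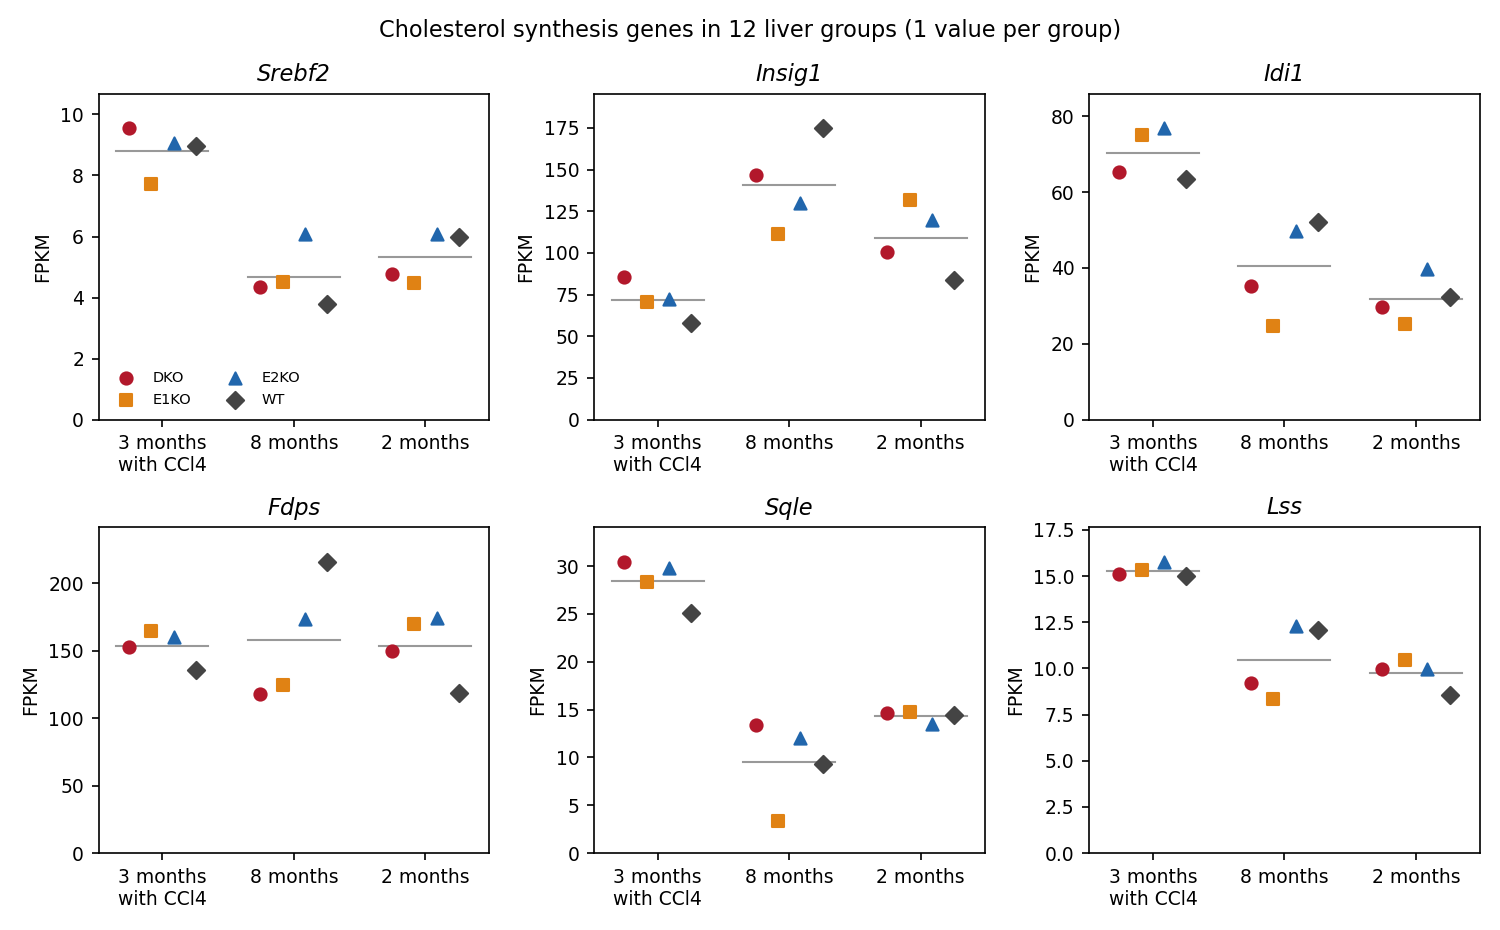
FPKM (vertical axes, starting at 0) of the 6 detected members in livers of 4 genotypes (points, 1 value per group) at 3 months with CCl4, at 8 months and at 2 months, with a grey line at the mean of the 4 genotypes. The CCl4 values of Srebf2, Idi1, Sqle and Lss lie above every 2-month value, those of Insig1 lie mostly below, and those of Fdps overlap.

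A single column stood apart. In the column labelled E1KO at 8 months, the summed level of 8 markers of skeletal muscle was 374 FPKM, while the other 11 columns had 1.29 to 1.96 FPKM. This column was the lowest of the 12 for Sqle, Idi1 and Lss. Ezh1 was 0.88 FPKM there and 0.06 to 0.27 FPKM in the other columns labelled Ezh1-/-, against 1.96 to 2.50 FPKM in columns with Ezh1. Ezh2 was 2.51, 4.68 and 3.92 FPKM in DKO, E1KO and E2KO livers with CCl4, against 5.68 FPKM in WT. At 8 months Ezh2 was 1.27, 0.78 and 0.79 FPKM in DKO, E1KO and E2KO, against 0.91 FPKM in WT. The DKO value there goes against the direction of its label. At 2 months Ezh2 was 0.74, 0.80 and 0.84 FPKM in DKO, E1KO and E2KO, against 1.11 FPKM in WT. At both ages E1KO livers, which keep Ezh2, were thus no higher than E2KO livers. Liver cells in which Alb-Cre was never active keep Ezh2, and a value for the whole gene does not show the deleted part. The part of either in these values was not tested. Where the text says so, values are also given without this column.

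The comparison of CCl4 with 2 months asks how the pathway's RNA differs in injured liver. Srebf2 and the enzyme genes Idi1, Sqle and Lss rose, by factors of 1.57 to 2.21 between the averages over the 4 genotypes, while Insig1 fell to 0.657 of its 2-month average and Fdps did not pass the test. In all, 4 members were higher and 1 lower of 6 tested (limma, Benjamini-Hochberg adjusted p under 0.05). In this comparison 57.9% of all tested genes passed, 33.4% higher and 24.5% lower, so a large share of any list would be called. The members' median difference was 0.62 on the log2(FPKM+1) scale, which is used for all differences below, and that of all tested genes was 0.07.

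Srebf2 encodes the SREBP-2 precursor, the pathway's transcription factor. Its level was 9.54, 7.72, 9.05 and 8.96 FPKM in DKO, E1KO, E2KO and WT livers with CCl4, against 4.76, 4.47, 6.07 and 5.99 FPKM in the same genotypes at 2 months. Every CCl4 value was above every 2-month value. The difference was 0.64 (SE 0.11, limma adjusted p = 0.00131), and by genotype it was 0.87, 0.67, 0.51 and 0.51.

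Idi1 encodes the isomerase that interconverts the 2 isoprenoid building blocks. It had 65.3, 75.2, 76.8 and 63.5 FPKM in DKO, E1KO, E2KO and WT livers with CCl4, against 29.8, 25.4, 39.7 and 32.5 FPKM at 2 months. The groups did not overlap, and the 4 CCl4 values were close to each other. The difference was 1.13 (SE 0.17, limma adjusted p = 0.000714), the largest among the members. Its paralog Idi2 was at most 0.02 FPKM in every column.

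Sqle encodes squalene epoxidase, the first oxygenation of the pathway and one of its rate-limiting enzymes. It had 30.4, 28.3, 29.8 and 25.1 FPKM in DKO, E1KO, E2KO and WT livers with CCl4, against 14.7, 14.8, 13.5 and 14.5 FPKM at 2 months. The groups were far apart and each was tight. The difference was 0.94 (SE 0.27, limma adjusted p = 0.0172), with a large error that includes the low 8-month E1KO value. Without that column the same difference had an SE of 0.09 (adjusted p = 0.00022). Without all WT columns the adjusted p was 0.0564, and without all E2KO columns 0.0641.

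Lss encodes lanosterol synthase, which closes the sterol rings. It had 15.1, 15.3, 15.8 and 15.0 FPKM in DKO, E1KO, E2KO and WT livers with CCl4, against 9.96, 10.5, 9.98 and 8.55 FPKM at 2 months. The CCl4 values were nearly equal across genotypes and all above the 2-month values. The difference was 0.60 (SE 0.12, limma adjusted p = 0.00254).

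Fdps encodes farnesyl diphosphate synthase, which stands between Idi1 and the squalene branch. It had 153, 165, 160.4 and 136 FPKM in DKO, E1KO, E2KO and WT livers with CCl4, against 149.9, 170.25, 174 and 119 FPKM at 2 months. These groups overlapped. The difference was 0.01 (SE 0.20, limma adjusted p = 0.958), so Fdps was the 1 detected member that did not pass.

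Insig1, the sterol-dependent anchor of Scap and itself a target of SREBP-2, had 85.3, 70.4, 72.3 and 58.1 FPKM in DKO, E1KO, E2KO and WT livers with CCl4. At 2 months it had 100.4, 132, 119 and 83.7 FPKM. It was lower with CCl4 in each of the 4 genotypes, while the DKO value with CCl4 lay just above the WT value at 2 months. The difference was -0.59 (SE 0.19, limma adjusted p = 0.0276). It did not pass without the E1KO columns (-0.49, adjusted p = 0.0884) or without the E2KO columns (-0.55, adjusted p = 0.107).

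Srebf2 and Insig1 thus stood on opposite sides. The ratio of Insig1 to Srebf2 in FPKM was 8.94, 9.12, 7.99 and 6.48 in DKO, E1KO, E2KO and WT livers with CCl4, and 21.1, 29.5, 19.7 and 14.0 at 2 months. At 8 months it was 33.8, 24.7, 21.4 and 46.0. Every CCl4 ratio was below every other ratio. Across the 12 columns, which share genotypes and conditions, Pearson r between the log2 values was -0.84, and it was -0.35 once condition means were removed, given here as a description. Without the E1KO column at 8 months these were -0.86 and -0.43.

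**Figure D2:**
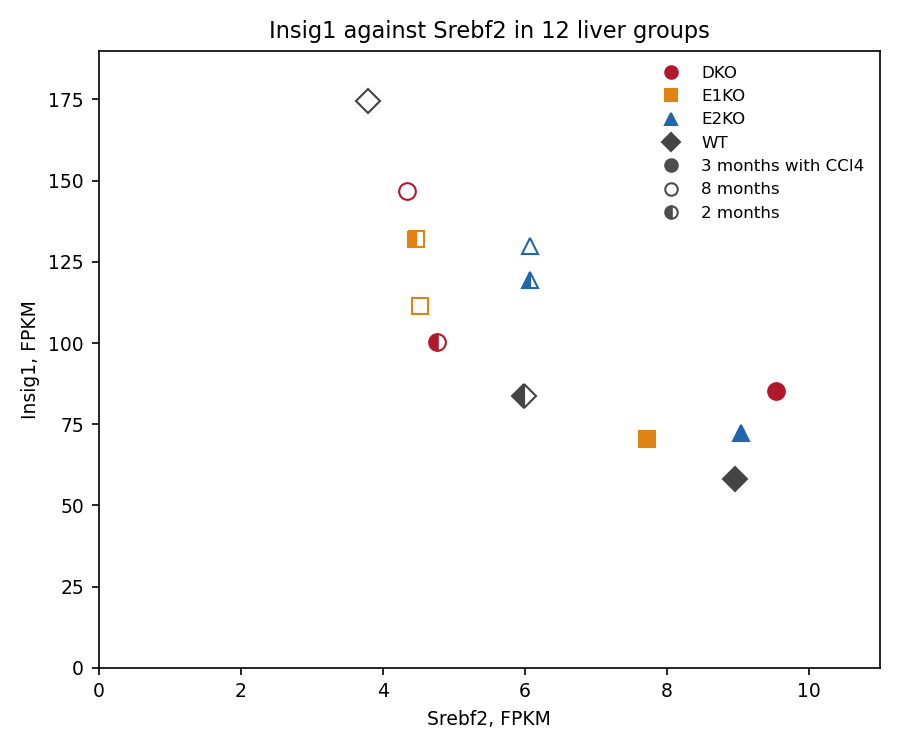
Insig1 (vertical axis, FPKM) against Srebf2 (horizontal axis, FPKM), 1 point for each of the 12 groups; colour and shape give the genotype and the filling gives the condition. The 4 CCl4 groups lie at the lower right, and WT at 8 months at the upper left with 175 FPKM of Insig1 and 3.80 FPKM of Srebf2.

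In single genotypes a member counted as apart when its log2 values differed by at least 1, a rule of size with no test. Between CCl4 and 2 months, Idi1 and Sqle were apart in DKO livers (1.11 and 1.01), where 12.4% of tested genes were. Idi1 was apart in E1KO livers (1.53; 18.1% of genes) and Sqle in E2KO livers (1.09; 16.1% of genes). No member was apart in WT livers, where 14% of genes were and Idi1 differed by 0.95. The DKO difference with CCl4 was also set against that at 2 months, from the average of the other genotypes: 0 of 6 members and 0.29% of all genes passed, and the member estimates ran from -0.07 (Lss) to 0.48 (Insig1).

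The other enzymes of the pathway moved unevenly with CCl4. Of 17 tested, 7 were higher, 2 lower and 8 did not pass, with a median of 0.31. The mevalonate kinase genes Pmvk (0.75, SE 0.14, limma adjusted p = 0.00162) and Mvk (0.68, SE 0.14, adjusted p = 0.00284) rose. A sterol reductase step further down the pathway than Lss has a pair of alternative genes, which went opposite ways. Lbr, also a protein of the nuclear envelope, rose by 1.02 and Tm7sf2 fell by 1.31. Lbr had 4.90 to 7.96 FPKM with CCl4 and 2.55 to 2.77 FPKM at 2 months. Tm7sf2 had 29.4 to 36.0 FPKM with CCl4 and 73.0 to 99.3 FPKM at 2 months. Ebp, the sterol isomerase, fell by 0.59. Among 10 SREBP regulators, Scap fell by 0.48 (SE 0.11, adjusted p = 0.0057), Erlin1, an endoplasmic reticulum protein, rose by 0.25 (adjusted p = 0.0366), and 8 did not pass. Erlin1 did not pass without the WT columns (adjusted p = 0.146), the E1KO columns (0.112) or the E2KO columns (0.107), nor with median-ratio scaling (0.204).

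**Figure D3:**
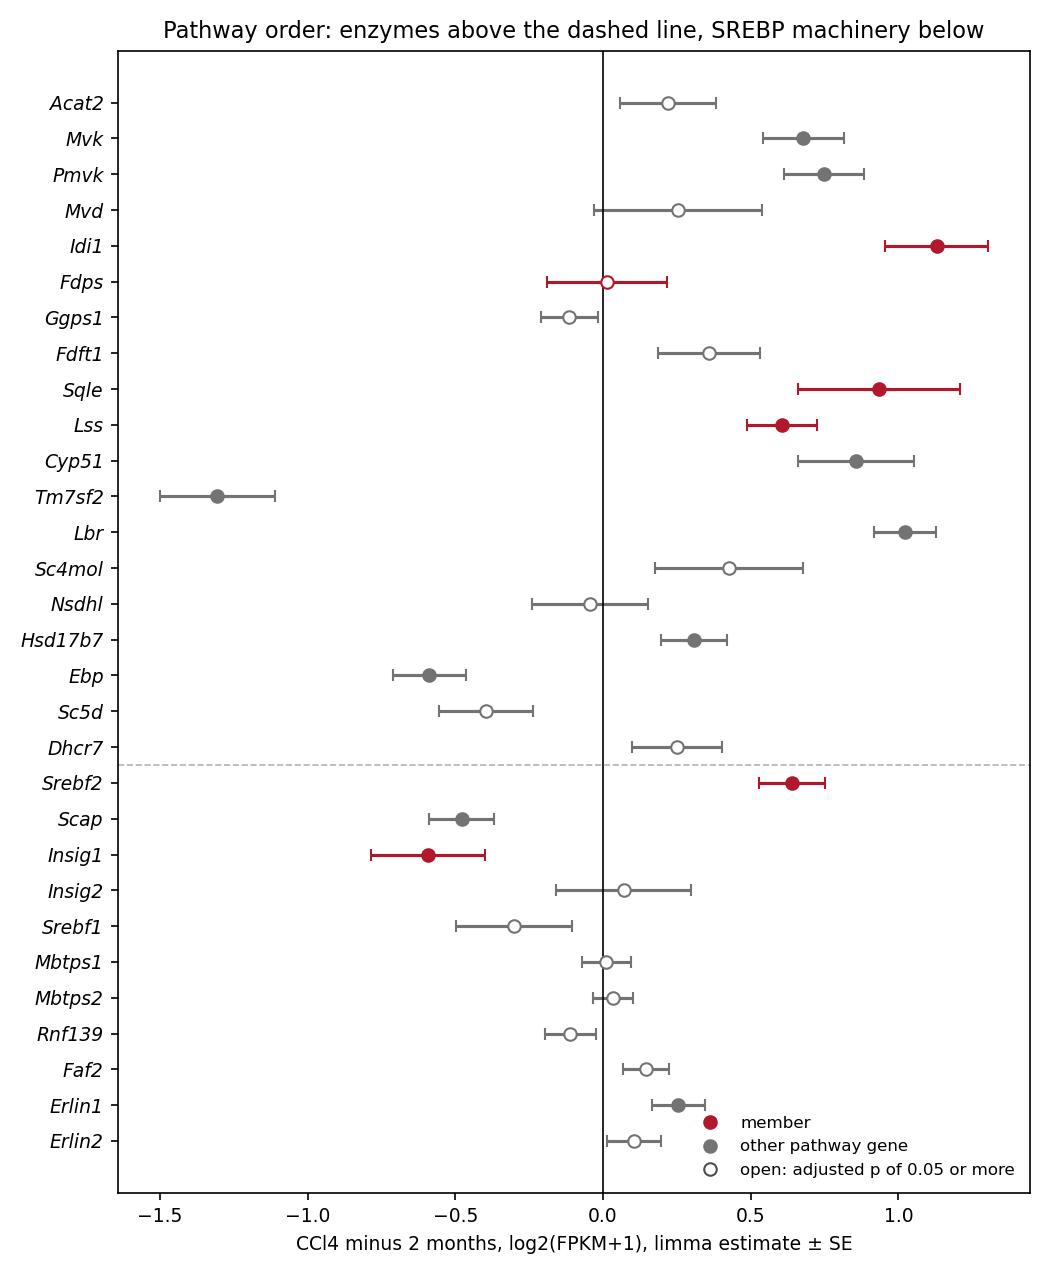
Difference between CCl4 and 2 months on the log2(FPKM+1) scale (horizontal axis; point, limma estimate; bar, SE) for the 4 detected enzymes and 2 regulators among the members (red), 15 of the 17 other enzymes and 9 of the 10 other SREBP regulators (grey), in pathway order from the top. Filled points passed an adjusted p of 0.05; Idi1, Sqle, Lss and Srebf2 lie to the right of 0, Insig1 to the left and Fdps at 0.

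Sterol handling genes and fatty acid genes were set beside the members. Of 10 tested uptake and trafficking genes, 4 were higher and 2 lower with CCl4. The lysosomal genes Lipa, a cholesteryl ester hydrolase, and Npc2, which moves cholesterol out of lysosomes, rose by 1.09 and 1.04, while Npc1, the partner of Npc2, fell by 0.95. Mylip, a ubiquitin ligase for lipoprotein receptors, rose by 0.64 and the receptor gene Lrp1 fell by 0.41 (adjusted p = 0.0309). Lrp1 did not pass without the WT (0.146), E1KO (0.07) or E2KO columns (0.156), or with equal-total scaling (0.141). Of 10 esterification and export genes, 3 were higher and 3 lower. Soat1, which esterifies cholesterol (0.99), and the exporter genes Abcg1 (0.93) and Abca1 (0.33) rose, and the bile sterol exporter genes Abcg8 (-0.89) and Abcg5 (-0.62) fell, as did Nr1h2, a sterol receptor gene, by 0.28. Abca1 did not pass without the E1KO columns (adjusted p = 0.0576) or with median-ratio scaling (0.0558), and Nr1h2 not without the WT (0.0508), E1KO (0.0885) or E2KO columns (0.0724) or with equal-total scaling (0.183). Of 14 fatty acid synthesis genes, 2 were higher and 4 lower. The carbohydrate-responsive factor gene Mlxipl fell by 2.77 and the desaturase gene Scd1 by 2.11, Acacb (-1.15) and Acss2 (-0.87) fell, and Fads2 (1.31) and Gpam (1.00) rose. Acacb did not pass without the E1KO columns (adjusted p = 0.0565).

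Marker RNA of cell types and of cell state differed strongly in the same contrast. The summed level of 9 hepatocyte markers was 4444 to 10171 FPKM with CCl4 and 12680 to 15016 FPKM at 2 months, with 5 of 9 lower. Macrophage markers were 285 to 646 FPKM with CCl4 and 99.6 to 163 FPKM at 2 months (11 of 12 higher), stellate and myofibroblast markers 360.0 to 513 and 97.1 to 155 FPKM (12 of 12 higher), endothelial markers 114 to 129 and 43.1 to 64.2 FPKM (9 of 9 higher), and proliferation genes 169 to 444 and 30.2 to 35.3 FPKM (10 of 10 higher). Cholangiocyte markers were 323 to 701 FPKM with CCl4 and 47.6 to 93.5 FPKM at 2 months (4 of 6 higher), and lymphocyte markers 2.56 to 6.54 and 3.30 to 5.48 FPKM (1 of 3 higher). Feeding and clock genes, which cholesterol synthesis is known to follow, were 530 to 1210 FPKM with CCl4 and 1506 to 2741 FPKM at 2 months (4 higher and 8 lower of 15). In whole liver, fewer cells of a type and less RNA per cell cannot be told apart, and the part of these differences in the members' values was not tested. DKO livers with CCl4 had the hepatocyte markers at 10171 FPKM, against 5287 FPKM in WT, and proliferation genes at 169 FPKM, against 444 FPKM in WT. One marker, Cyp2e1, the cytochrome that metabolises CCl4, was 3857 FPKM in these DKO livers and 464 FPKM in WT. Without Cyp2e1, left out after its values were seen, the sums were 6314 FPKM in DKO and 4823 FPKM in WT, and 4293 to 6314 FPKM with CCl4 against 7862 to 9150 FPKM at 2 months. Cps1, a urea cycle gene of the same list, was 241 FPKM in DKO and 415 FPKM in WT. Of the cholangiocyte sums, Spp1, which other cells of injured liver also express, made up 311 to 684 FPKM with CCl4 and 40.5 to 84.3 FPKM at 2 months, and the other markers together 10.4 to 16.5 and 6.94 to 9.15 FPKM. In DKO livers with CCl4, Srebf2 was 1.06, Sqle 1.21, Idi1 1.03, Fdps 1.13, Lss 1.01 and Insig1 1.47 times its value in WT.

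The comparison of DKO with WT asks whether the members depend on both PRC2 enzymes. No member passed: 0 of 6, where 2.62% of all tested genes did. Estimates ran from -0.21 (Idi1, SE 0.20, limma adjusted p = 0.614) to 0.25 (Sqle, SE 0.32, adjusted p = 0.703). Loss of Ezh1 alone gave 0 of 6 (0.0176% of all genes), with estimates from -0.38 (Idi1, adjusted p = 0.9) to 0.09 (Insig1). Without the E1KO column at 8 months, the E1KO estimates ran from -0.18 (Srebf2) to 0.30 (Insig1), with Idi1 at -0.15 and Sqle at 0.16 in place of -0.34. Loss of Ezh2 in hepatocytes also gave 0 of 6, and limma called 0% of all genes (155 were at an unadjusted p under 0.05). All 6 estimates for E2KO lay between 0.10 and 0.20, each with an adjusted p of 1. With all 12 columns, no member reached an unadjusted p under 0.05 in these 3 genotype comparisons. Exceptions among the alternatives were Sqle in DKO without the E1KO column at 8 months (0.25, limma unadjusted p = 0.048, adjusted 0.273), Fdps without all 8-month columns in E1KO (0.40, unadjusted p = 0.037) and E2KO (0.39, 0.0383), and Idi1 in E1KO without the CCl4 columns (-0.69, 0.0104). None of these passed after adjustment.

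Within conditions, members of DKO livers stayed within 1 of WT on the log2 scale in all 3, where 5.41% (CCl4), 4.08% (8 months) and 3.48% (2 months) of tested genes were at least that far apart. E2KO livers also had no member apart (1%, 2.8% and 1.21% of genes). E1KO livers had none with CCl4 (2.03% of genes) or at 2 months (2.23%), but 2 at 8 months, where 1.94% of genes were apart. These were Sqle, at 3.41 FPKM in E1KO and 9.32 FPKM in WT, and Idi1, at 24.8 FPKM in E1KO and 52.0 FPKM in WT. Both rest on the column with skeletal muscle RNA, and the part of that RNA in these values was not tested. With every column scaled to the same total, neither was apart.

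**Figure D4:**
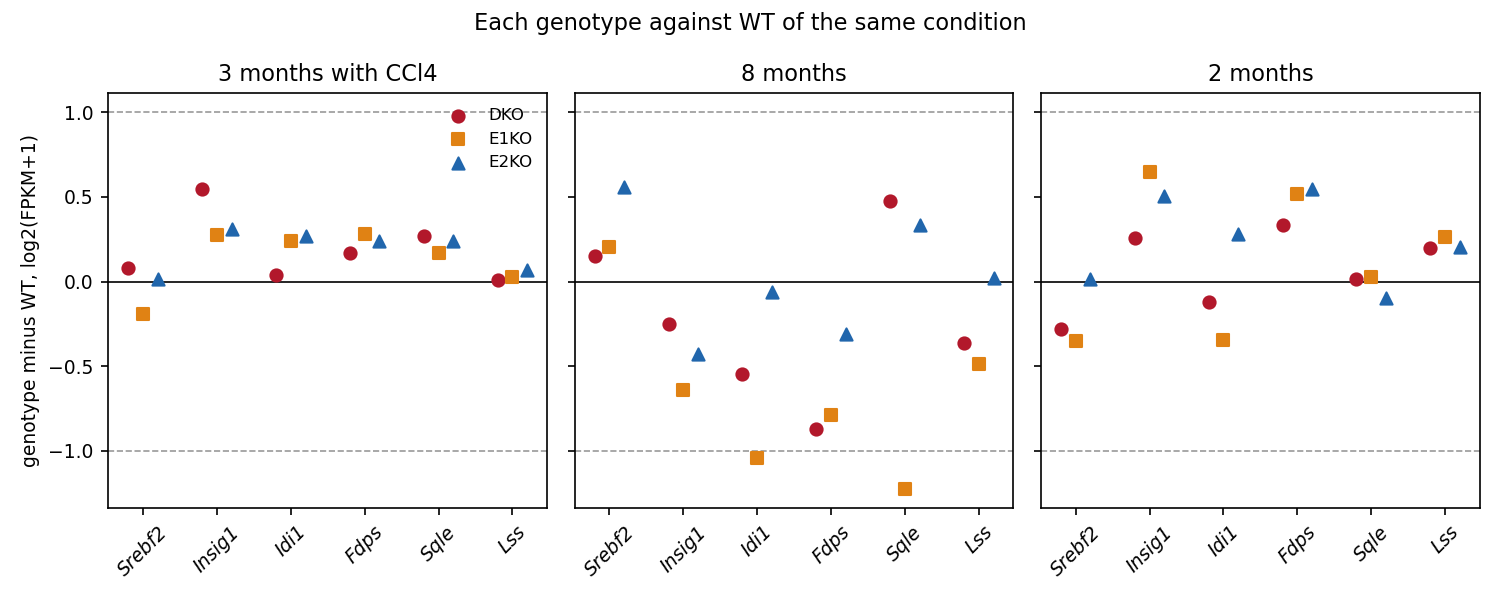
Difference of DKO, E1KO and E2KO livers from WT of the same condition on the log2(FPKM+1) scale (vertical axis) for the 6 detected members, in 1 panel per condition; dashed lines mark a difference of 1 in either direction. Sqle and Idi1 in E1KO livers at 8 months are the points beyond a dashed line.

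Fdps had 117.8, 125, 174 and 216 FPKM in DKO, E1KO, E2KO and WT livers at 8 months. The value in DKO was 0.546 times that in WT, and both WT and E2KO lay above DKO and E1KO. Insig1 had 147, 112, 129.7 and 175 FPKM, with WT highest of the 12 columns, as it was for Fdps. Idi1 had 35.3, 24.8, 49.9 and 52.0 FPKM, Lss 9.20, 8.33, 12.3 and 12.1 FPKM, and Sqle 13.4, 3.41, 12.02 and 9.32 FPKM in the same order. Srebf2 had 4.34, 4.52, 6.07 and 3.80 FPKM, and here WT was the lowest of the 12. At this age Fdps, Idi1 and Lss were lower in DKO and in the column labelled E1KO than in E2KO and WT. The E1KO column holds the skeletal muscle RNA and 0.88 FPKM of Ezh1, whose part in this order was not tested. WT at 8 months also had the largest FPKM total of the 12 columns, 674119, against 558553 to 588420 in the other 8-month columns. The values here are not scaled for it, and its part in them was not tested.

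Against 2 months, 0 of 6 members passed at 8 months, where 4.29% of all tested genes did. Insig1 had the largest positive estimate (0.37, SE 0.19, limma adjusted p = 0.311) and Sqle the largest negative one (-0.67, SE 0.27, adjusted p = 0.191), the 1 member at an unadjusted p under 0.05 (0.0373). Without the E1KO column at 8 months, Sqle was at -0.29 (adjusted p = 0.201), Insig1 at 0.52 (adjusted p = 0.22) and Idi1 at 0.47 (adjusted p = 0.164), and all 3 were at an unadjusted p under 0.05 (0.0242, 0.0298 and 0.0147). Between single columns, Insig1 was apart in WT livers (175 FPKM at 8 months, 83.7 FPKM at 2 months), where 4.55% of genes were, and with equal-total scaling it was not. Sqle was apart in E1KO livers (3.41 FPKM at 8 months, 14.8 FPKM at 2 months; 3.43% of genes), and no member was in DKO (3.79%) or E2KO livers (2.98%). The DKO difference at 8 months, set against that at 2 months, passed for 0 of 6 members and 0.246% of genes, with estimates from -0.48 (Fdps) to 0.74 (Sqle), or from -0.76 (Fdps) to 0.25 (Sqle) without the E1KO column at 8 months.

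Among the other enzymes none of 17 passed at 8 months. Pmvk (0.48, adjusted p = 0.0848) and Acat2, which condenses acetyl-CoA at the head of the pathway (0.48, adjusted p = 0.131), had the largest estimates. Lipa rose by 0.66 (adjusted p = 0.0275), and Scarb1, a lipoprotein receptor, fell by 0.59 (0.0438). Of 14 fatty acid synthesis genes Mlxipl (0.90, adjusted p = 0.0152) and Me1, which supplies NADPH (1.13, adjusted p = 0.0373), rose. Without the E1KO column at 8 months, Lipa (adjusted p = 0.0889), Scarb1 (0.0529) and Me1 (0.111) did not pass. Mlxipl did not pass without all WT (0.0624), E1KO (0.0905) or E2KO columns (0.0613). Over 9 alternatives Scarb1 passed in 2, Me1 in 4, Lipa in 5 and Mlxipl in 6. No SREBP regulator and no esterification or export gene passed.

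In genotype comparisons the partners of the members gave 1 call. Abcg5, which with Abcg8 exports sterols into bile, was higher in DKO livers by 0.71 (SE 0.12, limma adjusted p = 0.0294). It had 36.3, 48.5 and 59.6 FPKM in DKO livers with CCl4, at 8 months and at 2 months, against 24.6, 29.8 and 31.7 FPKM in WT. E1KO livers had 25.0, 45.5 and 40.3 FPKM and E2KO livers 25.0, 36.8 and 42.7 FPKM. DKO was thus the highest and WT the lowest genotype in each condition. The estimates for E1KO (0.32) and E2KO (0.25) against WT did not pass. The DKO difference of Abcg5 did not pass without the CCl4 columns (adjusted p = 0.161), the 8-month columns (0.144) or the 2-month columns (0.279). Nor did it pass with only the WT and DKO columns (0.148). Insig2, the second Insig, had 30.2, 42.2 and 38.4 FPKM in DKO livers, against 74.2, 77.8 and 86.4 FPKM in WT. DKO was the lowest genotype in each condition, yet the difference of -1.10 (SE 0.26, adjusted p = 0.0726) did not pass, and its adjusted p over 9 alternatives ran from 0.0636 to 0.294. Insig1 was 1.47, 0.841 and 1.20 times the WT value in DKO livers of these conditions. These ratios are not scaled for the larger FPKM total of WT at 8 months. Srebf1, the gene of the SREBP for fatty acid synthesis, was at 0.58 in DKO against WT (limma adjusted p = 0.219). Among the other enzymes, regulators, uptake genes and fatty acid genes, limma called none in DKO, E1KO or E2KO livers against WT, and none of these lists had a call for the DKO difference at 8 months or with CCl4 against that at 2 months. In DKO livers, Dhcr7 (-0.35), Mylip (0.38) and Gpam (-0.76) had the largest estimates of their lists. In E1KO livers these were Sc4mol (-0.30), Mylip (0.27) and Thrsp (-0.52), and in E2KO livers Mvd (0.20), Scap (0.33), Stard4 (0.61) and Fads2 (0.51).

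**Figure D5:**
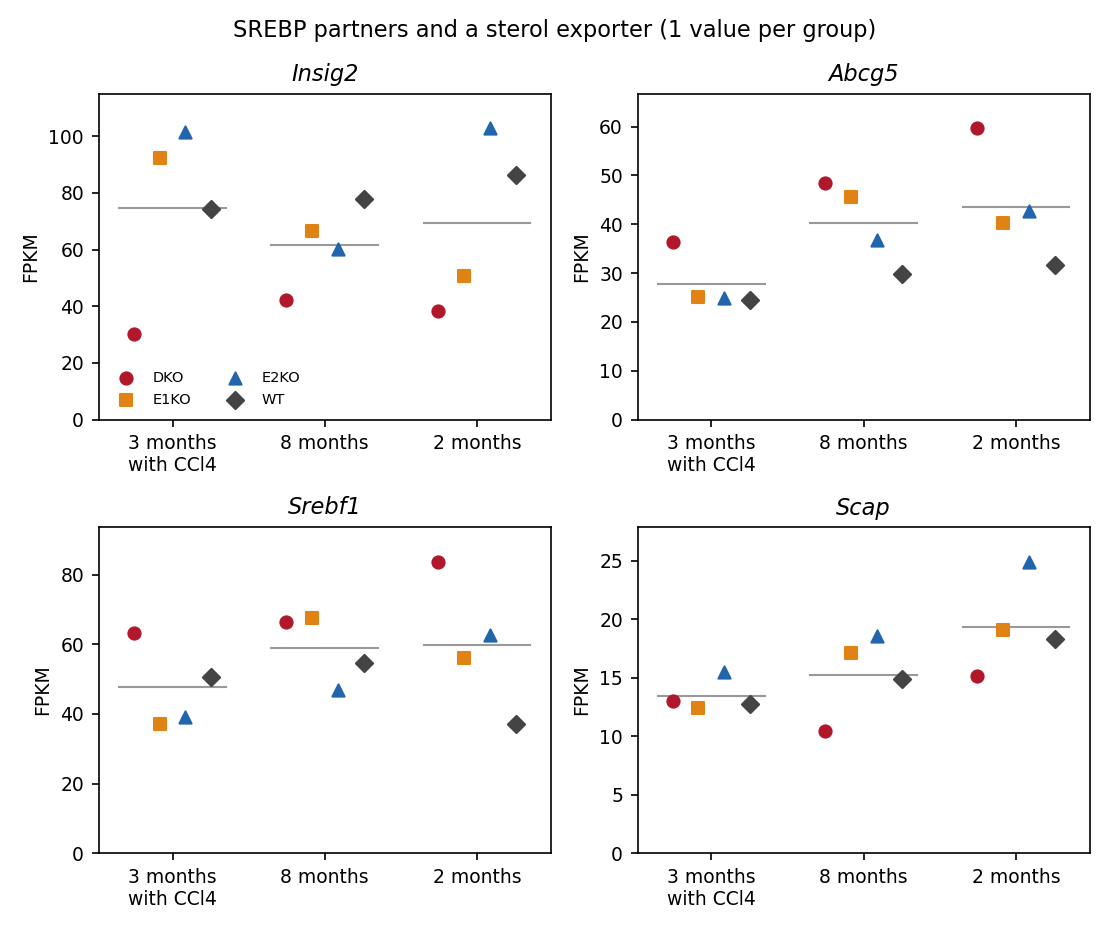
FPKM (vertical axes, starting at 0) of Insig2, Abcg5, Srebf1 and Scap in livers of 4 genotypes (points, 1 value per group) in the 3 conditions, with a grey line at the mean of the 4 genotypes. DKO is the lowest genotype for Insig2 and the highest for Abcg5 in each condition.

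The members did not all vary together. Over the 12 columns, r between log2 values was 0.93 for Idi1 and Lss, 0.78 for Srebf2 and Sqle, and -0.07 for Srebf2 and Fdps. With condition means removed it was 0.88 for Fdps and Lss, 0.72 for Idi1 and Lss, 0.68 for Fdps and Insig1, and 0.01 for Srebf2 and Lss. Within conditions, pairs among the enzyme genes and Insig1 had r of 0.22 to 0.88, and pairs with Srebf2 had r of -0.35 to 0.28. Without the E1KO column at 8 months these ranges were -0.55 to 0.91 and -0.43 to 0.35. Sqle then had r of -0.55 with Fdps, -0.45 with Lss and -0.49 with Idi1. Its positive r with those enzymes within conditions thus rest on that column. Fdps and Lss had r of 0.91 within conditions without that column. With condition means kept and that column left out, Sqle had r of 0.75 with Lss, 0.67 with Idi1 and -0.23 with Fdps.

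The gene most like the 6 members by mean r over the 12 columns was Cyp51 (0.57), the lanosterol demethylase and the next enzyme after Lss. Fdft1 (0.56), squalene synthase, the enzyme between Fdps and Sqle, followed. With single members, r ran from -0.50 to 0.95 for Cyp51 and from -0.06 to 0.83 for Fdft1, so neither was like all 6. The other genes named among the 10 nearest were Zfp771, Inhbc, Papss1, Ywhab, Itgb1bp1, Itfg1 and Hint1, with mean r of 0.54 to 0.51. Their lowest r with a member ran from -0.72 (Papss1) to -0.34 (Zfp771). With condition means removed, the nearest were Fdft1 (0.63), Cyp51 (0.63), Papss1 (0.61), Nsdhl (0.60), a sterol dehydrogenase of the same pathway, and Inhbc (0.60). Cyp51 had 41.8, 50.4, 52.3 and 39.8 FPKM in DKO, E1KO, E2KO and WT livers with CCl4, against 21.3, 26.5, 27.7 and 24.2 FPKM at 2 months, and 23.3, 16.0, 34.2 and 33.4 FPKM at 8 months. These groups with CCl4 and at 2 months did not overlap, and at 8 months the E1KO value was again the lowest of the 12. These correlations rest on columns that share genotypes and conditions, include the E1KO column at 8 months, and are a description of this table.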

How the data were processed

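RNA-seq of mouse liver was deposited by the authors as 1 table of FPKM values to 2 decimals, with 22520 genes and 12 columns, 1 per group of genotype and condition. The sources used here do not say how the labelled replicates were combined. The submitters' processing notes name CASAVA, TopHat, Cufflinks, BWA, SICER and HOMER and the build mm9, with no versions. The table holds no read numbers, and without them depth, and any interval that needs it, is unknown. Columns summed to between 531761 and 674119 FPKM. The series' 9 ChIP-seq samples were not analysed here.

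Tests used the 11394 genes that reached 1 FPKM in 2 or more columns, as log2(FPKM+1), a scale that understates changes of low genes. limma 3.58.1 in R 4.3.3 was fitted with additive genotype and condition terms and a mean trend (6 residual degrees of freedom, two-sided, Benjamini-Hochberg over all tested genes, threshold 0.05). Adding DKO-by-condition terms left 4. The fit was tested on simulated data. With 1 value per group, the error behind each p-value is the departure of the columns from the fit, not the spread between animals. Pairs of columns have a rule of size (at least 1 apart) and no test.

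The members, gene lists and contrasts were chosen with earlier results of these data known. Genes named beside the members were, per list and contrast, up to 6 past the threshold (lowest p first), otherwise the 2 with the largest differences, of which the text gives the larger for some lists; 10 genes by likeness, and 5 more with condition means removed. Some genes this rule picks are counted in the lists but not reported here. Motifs searched were TCACNCCAC, TCACNCGAC, CCAAT and GGGCGG, on both strands; coordinates of RefSeq windows are of GRCm38.p6 and were not mixed with the mm9 table. Alternatives were a pseudocount of 0.1, no filter on low values, equal-total and median-ratio scaling, leaving out the E1KO column at 8 months, each condition or each genotype, and only the WT and DKO columns. Marker sums without Cyp2e1 or Spp1, and correlations and highest-to-lowest ratios without the E1KO column at 8 months, were added after seeing the data.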

Additional observations from a re-analysis of the deposited data

How the results depend on the processing

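The members called with CCl4 numbered 5 and ran from 3 (without the E2KO columns) to 5 over fits leaving out 1 genotype; Srebf2, Idi1 and Lss passed in all 9 alternatives, Sqle and Insig1 in 7. No alternative called a member in any other contrast. With equal-total scaling, members at least 1 apart numbered 0 in place of 2 (E1KO against WT, 8 months), 2 in place of 1 (CCl4 against 2 months, E1KO) and 0 in place of 1 (8 against 2 months, WT).

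Counts over all genes depended more on the setting. DKO against WT called 299 genes (206 higher, 93 lower), 182 higher and 38 lower with equal-total scaling, 21 genes with only the WT and DKO columns, and 26 to 44 leaving out a condition. E1KO against WT called 2, 4 without the E1KO column at 8 months, and 0 to 4 leaving out a condition. At 8 against 2 months 489 were called, 306 with equal-total scaling, 127 without the E1KO column at 8 months, and 54 to 249 leaving out a genotype. The DKO difference at 8 months called 28, then 3 with a pseudocount of 0.1, 328 with no filter and 18 without that column; with CCl4 it called 33, then 7, 300 and 21. CCl4 called 3800 higher and 2794 lower, and 3143 and 3491 with median-ratio scaling.

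Of member estimates that did not pass, some changed sign. Leaving out 1 condition, DKO estimates ran from -0.35 to 0.25 for Fdps, from -0.18 to 0.10 for Lss and from -0.099 to 0.12 for Srebf2, which was at 0.023 with equal-total scaling. E1KO estimates ran from -0.25 to 0.40 for Fdps, from -0.18 to 0.46 for Insig1, from -0.23 to 0.15 for Lss, from -0.60 to 0.10 for Sqle and from -0.27 to 0.0049 for Srebf2; without only the E1KO column at 8 months, Lss was at 0.082 and Sqle at 0.16. E2KO estimates ran from -0.037 to 0.39 for Fdps and from -0.057 to 0.41 for Insig1. Leaving out 1 genotype, the 8 against 2 months estimates ran from -0.26 to 0.17 for Fdps, which was at -0.00025 with median-ratio scaling, and from -0.042 to 0.21 for Lss. With CCl4, Fdps ran from -0.046 to 0.057 and was at -0.11 with median-ratio scaling, and its DKO difference was at -0.062 with equal-total scaling. The cause was not tested in any of these. No paired analysis was possible because the 12 columns carry no replicate numbers; the additive fit itself compares conditions within genotypes. With no counts, what depth limits cannot be given.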
